A study of Mus musculus with 9 samples.

Results

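Killer cell lectin-like receptors are membrane proteins first known from natural killer (NK) cells, and 1 of them, KLRG1, is a standard surface marker of group 2 innate lymphoid cells (ILC2s). The genes described here were 8 mouse genes chosen by symbol, Klrg1, Klrk1, Klrd1, Klrc1, Klrb1b, Klrb1c, Klrb1f and Klre1. Of these, 6 had counts among 20732 genes, and Klrd1 and Klre1 were not analysed here. The messenger RNA of pancreatic ILC2s of C57BL6/J mice was measured in 9 libraries. Injections of PBS (4 libraries, which the titles call naïve) or of 200 ng IL-33 (5 libraries) were given on days 0 and 1, with harvest on day 5. The sort kept live CD45+ cells without CD3, B220 or lineage markers and with KLRG1 on the surface, so every library came from cells chosen for the protein that Klrg1 encodes. The study asked, from its title, about ILC2s and a fibroblast niche in the pancreas, and the single comparison is IL-33 against PBS.

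Most of these receptor genes sit in the natural killer gene complex on mouse chromosome 6, and the proteins carry a C-type lectin-like domain outside the cell. Inhibitory members such as KLRG1, NKR-P1B (Klrb1b) and NKG2A (Klrc1, which pairs with CD94 from Klrd1) hold a tyrosine motif in the cytoplasmic tail, the ITIM, that recruits phosphatases. Activating members such as NKG2D (Klrk1), NKR-P1C (Klrb1c, the NK1.1 antigen of C57BL/6 mice) and NKR-P1F (Klrb1f) signal through adaptors or kinases. Klre1 forms pairs with other lectin-like receptors. KLRG1 binds classical cadherins, and it is known to be raised on mature and cytokine-activated ILC2s.

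The coding sequence of 4 receptors is shown from a start codon, because the ITIM of the inhibitory tails is encoded there. Each run is 60 bases of GENCODE M21 annotation on GRCm38, chromosome 6, written 5′ to 3′ on the minus strand. Capitals mark the codons of a 6-residue ITIM pattern (I, V, L or S, any residue, Y, any pair of residues, then I, V or L).
Klrg1: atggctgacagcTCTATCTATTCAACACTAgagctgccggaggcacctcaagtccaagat
Klrb1b: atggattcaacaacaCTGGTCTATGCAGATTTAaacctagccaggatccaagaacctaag
Klrc1: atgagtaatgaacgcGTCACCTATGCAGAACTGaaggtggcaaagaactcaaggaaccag
Klrb1c: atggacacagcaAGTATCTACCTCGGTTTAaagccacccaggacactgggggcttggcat
The runs lie at chr6:122282752-122282811 for Klrg1, chr6:128826187-128826246 for Klrb1b, chr6:129678851-129678910 for Klrc1 and chr6:128788422-128788481 for Klrb1c. In the first 3 the pattern begins at codon 5, 6 and 6. For Klrb1c the run starts at the in-frame ATG that is codon 49 of the annotated coding sequence, and the same loose pattern matched from codon 5 after it, although the receptor is known as activating. A letter match in this window therefore does not separate inhibitory from activating receptors. In global alignments of the coding sequences, Klrb1b and Klrb1c were the closest pair, with 87.6% of bases the same at positions without gaps. The next closest, Klrb1c and Klrb1f, had 72.9%, Klrb1b and Klrb1f 71.6%, and Klrg1 and Klrb1b 69.9%. Over the full alignments, gaps counted, the values in the same order were 71.1%, 57.1%, 68.4% and 48.5%.

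Library totals lay between 14216976 and 21020023 counts, with 16015 to 17573 genes having a count. The ILC2 marker list (11 of 11 genes with counts) summed to 8594 to 11142 CPM (counts scaled to library size, with edgeR's TMM factors) in the PBS libraries and 9679 to 14161 in the IL-33 libraries. That list includes Klrg1 itself, and its sum mixes changes in both directions. Klrg1, Il5 and Il13 were higher with IL-33, while Il7r, Icos and Il2ra were lower (edgeR adjusted p below 0.05 for each). PBS replicate 4 stood apart, with 40.1% of its counts in 21 acinar enzyme genes and a scaling factor of 0.532. The other libraries held 0.126 to 11.6% and had factors from 0.990 to 1.17. In edgeR's quasi-likelihood test over 14405 genes, 3633 were called at an adjusted p below 0.05 (25.2%), 1967 higher with IL-33 (13.7%) and 1666 lower (11.6%), and the groups did not overlap for 3757 (26.1%). The design text counts mice per group, with numbers that differ from those of the labels, and nothing ties each library to 1 mouse. The p-values cover the spread among the 9 libraries, which may be partly technical.

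Klrg1 rose with IL-33 and was by far the main killer lectin receptor transcript of these cells. Its gene (ENSMUSG00000030114) spans chr6:122270596-122282882 on the minus strand of GRCm38. The 4 PBS libraries held 785, 731, 727 and 593 CPM, from 15467, 12131, 14340 and 6213 counts. The 5 IL-33 libraries held 1357, 1138, 1497, 1680 and 1475 CPM, from 24555, 19167, 32199, 35273 and 33251 counts. Every IL-33 library lay above every PBS library, and PBS replicate 4 was the lowest of all. Means were 709 ± 81.9 CPM (SD, n = 4) and 1429 ± 200.0 CPM (SD, n = 5), a ratio of 2.02. The log2 change was 1.01 ± 0.13 (SE) with an edgeR adjusted p of 7.9e-04, and without PBS replicate 4 it was 0.92.

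**Figure D1:**
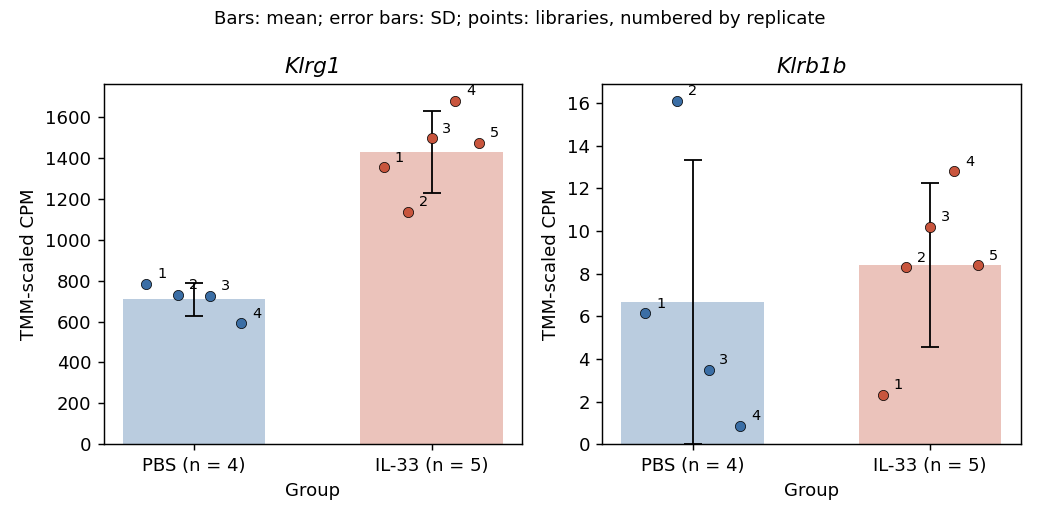
TMM-scaled CPM of Klrg1 (left) and Klrb1b (right) in the 4 PBS and 5 IL-33 libraries, with bars for means, error bars for SD and points numbered by replicate. All IL-33 points of Klrg1 lie at or above 1138 CPM and all PBS points at or below 785 CPM, while the Klrb1b groups overlap.

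Klrg1 was also among the steadier transcripts within each group, compared with tested genes of every level. The comparison was not matched for abundance, and Klrg1 was an abundant transcript. Its coefficient of variation was 11.6% over the PBS libraries, where the median over all tested genes was 34.1% and 7.66% of them had a smaller value. It was 14% over the IL-33 libraries, where the median was 27.2% and 16.3% had a smaller value. The same shift was seen without any scaling factor. Klrg1 took 0.0315 to 0.0886% of all counts in the PBS libraries and 0.124 to 0.176% in the IL-33 libraries. The lowest share was that of PBS replicate 4, the acinar-rich library, and the next lowest was 0.0771%. The shift was also seen as a ratio within each library. Per kilobase of exon, the level of Klrg1 was 39.9 to 49.5% of that of Gata3, the lineage-defining transcription factor of ILC2s, in the PBS libraries, and 61.9 to 158% in the IL-33 libraries. Gata3 itself, chosen here after its values were seen, had a log2 change of -0.16 (edgeR adjusted p = 0.654). In sorted bulk RNA, fewer cells of a type and less RNA per cell cannot be told apart, and the gate on KLRG1 protein leaves out any cell low in it.

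Transcripts of other cell types differed between the same groups, and their part in the Klrg1 change was not tested. The NK cell and ILC1 list (9 of 17 genes with counts) summed to 69.6 to 101 CPM with PBS and 8.96 to 29.2 CPM with IL-33. Most of the PBS sum came from Ccl5 and Nkg7, with means of 47.0 and 26.7 CPM. Ccl5, a chemokine of cytotoxic lymphocytes, fell by 2.46 in log2 units (adjusted p = 8.1e-04, edgeR), and Nkg7, a cytotoxic granule protein, fell by 2.71 (edgeR adjusted p = 0.0047). Gzma, the granule protease granzyme A, had no counts in any PBS library and was at least 20.3-fold higher with IL-33, against a floor of 3 counts per library. It passed the low-count filter through the IL-33 libraries alone. The rest of the list had group means of at most 2.78 CPM and no calls. Of these genes, Gzmb, Fcgr3 and Xcl1 had higher means with IL-33, and Prf1, Itga1 and Itga2 had lower ones. The NK markers Ncr1 and Ifng were among the 8 genes of the list not analysed here. The mast cell list (2 of 6 genes, Cpa3 and Fcer1a) summed to 15.4 to 45.8 CPM with PBS and 94.2 to 357 CPM with IL-33, and the erythroid list (6 of 6) to 168 to 323 and 369 to 3568 CPM. The endothelial list (8 of 8) summed to 50.5 to 240 CPM with PBS and 18.1 to 60.9 CPM with IL-33. Of its genes, 3 were called, Kdr, Ptprb and Tie1, all lower, beside 11.6% of all tested genes called lower. These 3 passed the low-count filter through the PBS libraries, where they were high. The B cell list (6 of 6) summed to 423 to 577 and 177 to 439 CPM, with Ighm called lower and Cd79b higher. The myeloid list (11 of 12) summed to 21 to 47.3 and 39.6 to 107 CPM, with Xcr1 called higher, and the T cell list (9 of 11) to 939 to 1050 and 747 to 992 CPM, with Trbc1 called lower.

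The counts of Klrg1 could be assigned to it with little ambiguity. Its exons overlapped no other annotated gene, and none of its 1384 distinct runs of 31 bases (31-mers) occurred in a transcript of another gene. Per kilobase of its 1414 bp of exon it reached 501 ± 57.9 CPM with PBS and 1011 ± 141 CPM with IL-33. Among 14219 protein-coding genes ranked by that level, it stood between 74 and 132 in the PBS libraries and between 35 and 66 in the IL-33 libraries. Of all counts of the 6 receptors, Klrg1 took 96.9 to 99.9% in each of the 9 libraries.

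**Figure D2:**
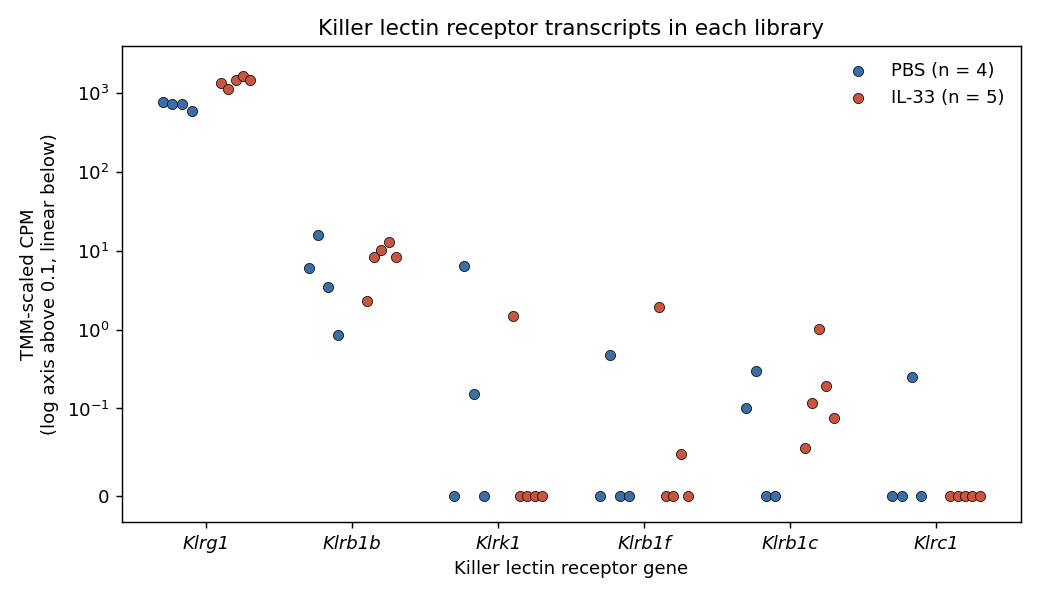
TMM-scaled CPM of the 6 killer lectin receptor genes in each of 4 PBS and 5 IL-33 libraries (log axis above 0.1, linear below, 1 point per library). Klrg1 lies at 593 CPM or more in each library and Klrb1b between 0.859 and 16.1 CPM. Klrk1, Klrb1f and Klrc1 are at 0 in most libraries, and Klrb1c has counts in 2 PBS libraries and in all 5 IL-33 libraries.

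Klrb1b, which encodes the inhibitory receptor NKR-P1B, was the second receptor by counts in every library and did not differ between groups beyond its spread. The gene (ENSMUSG00000079298) lies at chr6:128813706-128826331 on the minus strand. The PBS libraries held 6.14, 16.1, 3.50 and 0.859 CPM, from 121, 267, 69 and 9 counts. The IL-33 libraries held 2.32, 8.31, 10.2, 12.8 and 8.38 CPM, from 42, 140, 220, 268 and 189 counts. The groups overlapped: PBS replicate 2 was the highest of all 9 libraries and PBS replicate 4 the lowest. The means were 6.65 ± 6.66 CPM (SD, n = 4) and 8.40 ± 3.85 CPM (SD, n = 5). The log2 change was 0.33 ± 0.73 (SE), with an edgeR adjusted p of 0.771. The change depended on single libraries: its sign turned without PBS replicate 4 (-0.04), and it was larger without PBS replicate 2 (1.25, edgeR adjusted p = 0.25).

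The spread of Klrb1b between libraries was wide. Its coefficient of variation was 100.1% with PBS and 45.9% with IL-33. Of tested genes of every level, 88.1% and 74.2% had a smaller one. Counting error does not span that range, since the exact Poisson 95% interval of PBS replicate 2 was 14.2 to 18.1 CPM and that of replicate 4 was 0.393 to 1.63 CPM. Per kilobase, Klrg1 exceeded Klrb1b by 71.6-fold in PBS replicate 2, where the gap was smallest, and by 1088-fold in PBS replicate 4, where it was widest. Some reads of Klrb1b could belong to a neighbour. Of its 31-mers, 30.8% also occurred in transcripts of other genes, 27.5% in Gm44511, a gene model on the same strand that shares exon bases with both Klrb1b and Klrb1c.

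The activating receptors were present at a trace or at 0, each carried mostly by 1 library. Klrk1, which encodes NKG2D (chr6:129610323-129623864, minus strand), had 107 counts in PBS replicate 2, 3 in PBS replicate 3 and 27 in IL-33 replicate 1. The other 6 libraries had none, which allows up to 3 counts each, or 0.133 to 0.286 CPM over all libraries. The 107 counts correspond to 6.45 CPM (exact Poisson 95% interval 5.29 to 7.79), so this library stood apart from the zeros beyond counting error.

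Klrb1f, which encodes NKR-P1F (chr6:129045901-129057464, plus strand), had 35 counts in IL-33 replicate 1, 8 in PBS replicate 2 and 1 in IL-33 replicate 4. It had none elsewhere. Klrb1f and Klrk1 were thus highest in the same library of each group, PBS replicate 2 and IL-33 replicate 1. Klrb1b did not follow them in both: it was the highest of its group in PBS replicate 2 and the lowest in IL-33 replicate 1.

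Klrb1c, which encodes the NK1.1 antigen (chr6:128778485-128789215, minus strand), had 2, 5, 0 and 0 counts in the PBS libraries and 1, 2, 22, 4 and 2 in the IL-33 libraries. Its highest value was 1.02 CPM, in IL-33 replicate 3, a library that was not high in Klrk1 or Klrb1f. Of the 31-mers of Klrb1c, 21.2% also occurred in other genes, Klrb1b among them, so part of these few counts could come from its more abundant neighbour.

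Klrc1, the inhibitory NKG2A chain (chr6:129666015-129678973, minus strand), had 5 counts in PBS replicate 3 and none in the other 8 libraries. Of its 31-mers, 53.1% occurred in other genes and 49.6% in Klrc2, an activating relative, whose 9 counts also all came from PBS replicate 3. The source of those reads within the pair is uncertain. How the deposited counts treated reads that match several genes is not stated, and if such reads were dropped, the levels and zeros of Klrb1b, Klrb1c and Klrc1 would be too low. None of these 4 receptors passed edgeR's filter on low counts, so no test was made in the fit over 14405 genes. In a fit without the filter, the edgeR adjusted p was 0.521 for Klrb1c, 0.645 for Klrb1f, 0.466 for Klrk1 and 0.205 for Klrc1. A difference between groups was not detectable with these counts and this spread between libraries.

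Of the 2 receptors tested, 1 was called higher (Klrg1) and 0 lower, beside 25.2% of all tested genes called; Klrg1 was also the 1 receptor whose groups did not overlap. In the order of levels per kilobase of merged exons, Klrg1 came first and Klrb1b next in each of the 9 libraries. Below them the order changed from library to library, and no gene exceeded 0.955 CPM per kilobase. With the length of the longest transcript in place of merged exons, Klrb1f stood above Klrb1b in IL-33 replicate 1 (1.14 against 1.04 CPM per kilobase), and Klrk1 reached 1.98 CPM per kilobase in PBS replicate 2. Over PBS libraries Klrb1b (2.98 ± 2.99 CPM per kilobase) and Klrk1 (0.230 ± 0.446) overlapped in range, and Klrk1, Klrb1f, Klrb1c and Klrc1 did not differ beyond their spread.

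Other killer lectin receptor genes gave almost no signal. Of 22 listed, 4 had counts and none passed the filter. Klrg2, the closest relative by name of Klrg1, had 25 counts in IL-33 replicate 5 and 2 in PBS replicate 3. Klrb1a had 11 counts over all libraries, Klrc2 had 9 and the pseudogene Klra13-ps had 3. The Ly49 genes proper (Klra1 and its relatives) were not analysed here.

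Among known ligands of the receptors, 12 of 13 listed had counts, 6 were tested, 1 was called higher, 0 lower and 5 were not called, with a median log2 change of 0.44. Over all tested genes 25.2% were called and the median was -0.05. Clec2d, which encodes Clr-b, the ligand of NKR-P1B, lies at chr6:129180615-129186534 between the receptor genes. It held 3.15, 2.17, 4.31 and 1.34 CPM with PBS and 3.70, 7.60, 9.86, 7.62 and 10.1 CPM with IL-33. The groups overlapped through IL-33 replicate 1, which was below PBS replicate 3. Clec2d rose, with a log2 change of 1.5 ± 0.45 (edgeR adjusted p = 0.037). That call was lost under 11 of 18 alternative analyses, among them those without PBS replicates 1, 2 or 4 and those without IL-33 replicates 2, 3, 4 or 5 (adjusted p up to 0.15 over all 18).

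The other ligands did not pass the test. H2-T23, the Qa-1 molecule seen by CD94 with NKG2A, held 149 ± 20.2 CPM with PBS and 191 ± 19.9 with IL-33, and the groups did not overlap (log2 change 0.36, edgeR adjusted p = 0.0608; called in 1 of 18 alternatives, limma voom). Clec2i, which encodes Clr-g, a ligand of NKR-P1F, had a log2 change of 0.52 (edgeR adjusted p = 0.209). Of the NKG2D ligands, Ulbp1 had 1.09 (edgeR adjusted p = 0.381) and H60b -2.57 (edgeR adjusted p = 0.144), and H60b shares exon bases with Raet1e. Of the cadherins that KLRG1 binds, the N-cadherin gene Cdh2 had -2.63 (edgeR adjusted p = 0.11), with 6.58 CPM in PBS replicate 4, the acinar-rich library, and 0 to 1.07 CPM in the others. Leaving out that library gave -1.16, and Cdh2 was called in 1 of 17 alternatives, the DESeq2 Wald test (adjusted p = 0.0485). The E-cadherin gene Cdh1 was also highest there, with 194 of its 245 PBS counts. Cdh4 had 36 counts, 35 of them in IL-33 replicate 3.

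**Figure D3:**
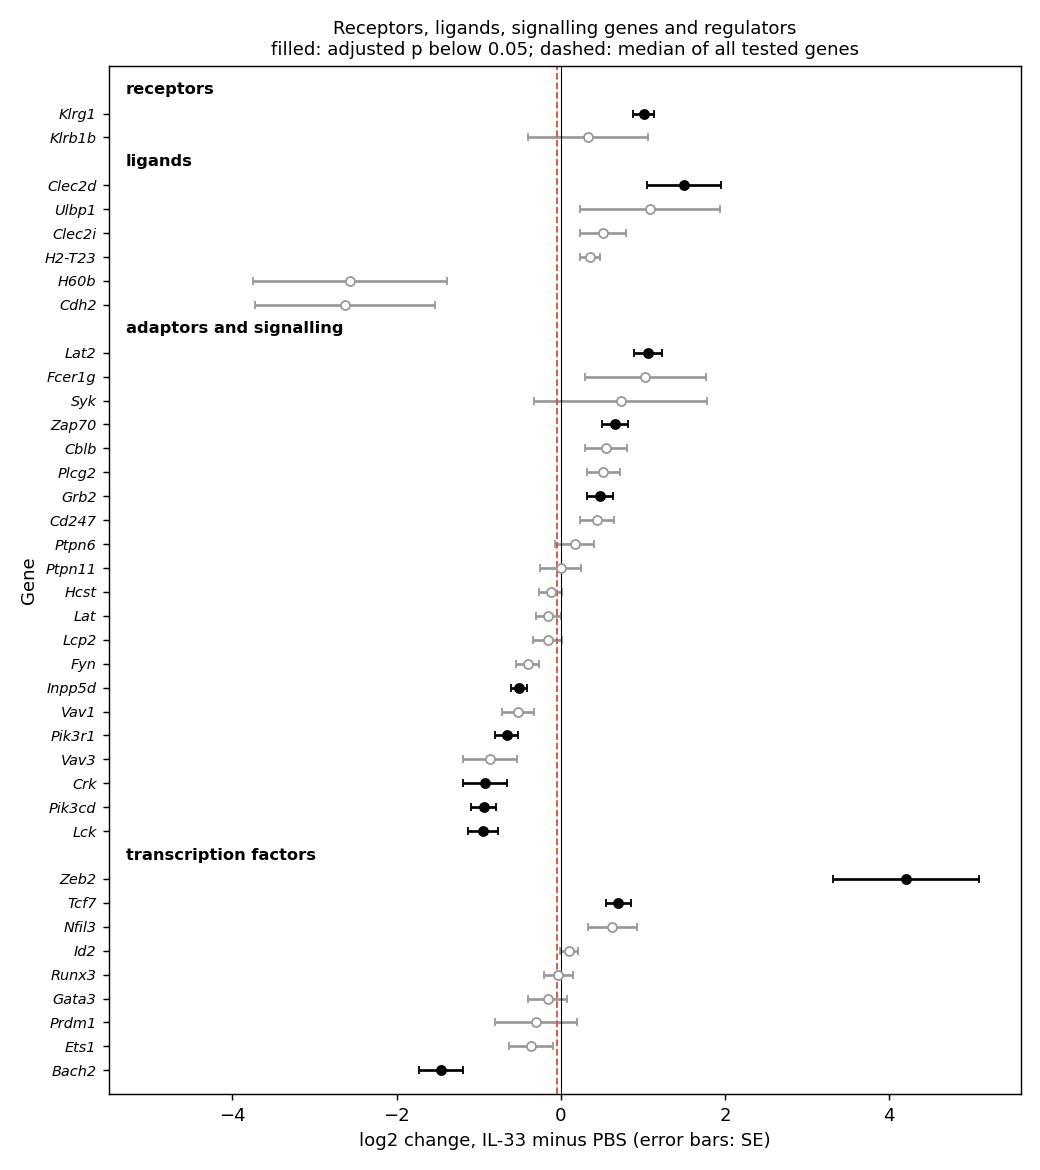
Log2 change, IL-33 minus PBS, with SE (x axis) of every tested receptor, ligand, signalling gene and transcription factor of the lists (y axis). Filled points had an edgeR adjusted p below 0.05, and the dashed line is the median of all tested genes (-0.05). Klrg1 is filled at 1.01, and the filled signalling genes lie on both sides of 0.

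Of 22 adaptors, kinases and phosphatases that act below these receptors, 21 were tested: 3 were higher, 5 lower and 13 not called, with a median log2 change of -0.12. Over all tested genes 13.7% were higher and 11.6% lower. Of 3 phosphatase genes known to serve ITIM receptors, 1 was called. Inpp5d, which encodes the lipid phosphatase SHIP1 that KLRG1 can recruit, fell from 153 ± 9.46 to 107 ± 9.36 CPM, a log2 change of -0.51 (adjusted p = 0.0056, edgeR), and the groups did not overlap. Ptpn6, which encodes SHP-1, and Ptpn11, which encodes SHP-2, had log2 changes of 0.17 and 0.00 (edgeR adjusted p = 0.632 and 0.998).

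The adaptors of the activating receptors were unequally present. Hcst, which encodes DAP10, the partner of NKG2D, held 124 ± 14.1 CPM with PBS and 115 ± 16.6 with IL-33, while its receptor gene Klrk1 was at 0 in 6 of 9 libraries. The log2 change of Hcst was -0.12 (edgeR adjusted p = 0.559) and its sign turned to 0.02 with scaling by library size alone. Tyrobp, which encodes DAP12, did not pass the filter, and 158 of its 208 counts in the IL-33 group came from replicate 4. Fcer1g, the gamma chain that serves NKR-P1C, had 3.74 ± 2.37 and 7.66 ± 4.98 CPM, a log2 change of 1.03 (adjusted p = 0.34, edgeR).

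Lat2, an adaptor of immunoreceptor signalling, rose. It held 26.1, 31.6, 33.4 and 28.6 CPM with PBS and 66.7, 49.3, 57.4, 79.1 and 58.6 CPM with IL-33. Each IL-33 library exceeded each PBS library, and the log2 change was 1.06 ± 0.17 (edgeR adjusted p = 0.0019). Lat2 shares exon bases with the antisense gene Rfc2, and whether the library kit kept strand is not stated. The tyrosine kinase gene Zap70 went up from 134 ± 29.5 to 213 ± 22.3 CPM, a log2 change of 0.66 (adjusted p = 0.0159, edgeR). Grb2, a linker to Ras signalling, was called at 0.48 (edgeR adjusted p = 0.0499), a call that was lost under 14 of 18 alternatives.

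The kinase genes Pik3cd and Lck fell. Pik3cd, the delta catalytic subunit of PI3 kinase, held 204, 176, 219 and 165 CPM with PBS and 105, 125, 75.1, 98.6 and 95.2 with IL-33. Its groups did not overlap, and its log2 change was -0.94 ± 0.15 (edgeR adjusted p = 0.0023). Lck, the Src-family kinase that phosphorylates tyrosine motifs in T cells, held 120, 167, 188 and 135 CPM with PBS and 57.1, 74.9, 94.8, 76.4 and 90.6 with IL-33. Its groups did not overlap either, and its log2 change was -0.95 ± 0.18 (edgeR adjusted p = 0.0047). Pik3r1, a regulatory subunit of PI3 kinase, fell by 0.66 (edgeR adjusted p = 0.0079) and the adaptor gene Crk by 0.92 (edgeR adjusted p = 0.0324) on the log2 scale. Scaling by library size alone moved the median of all genes from -0.05 to 0.08 and ended the calls of Inpp5d, Zap70, Grb2, Pik3cd, Lck, Pik3r1 and Crk without turning a sign, while Lat2 and Klrg1 were still called. Crk also lost its call in 5 of the 9 fits that left out 1 library, those without PBS replicates 1 or 2 or IL-33 replicates 2, 3 or 5.

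**Figure D4:**
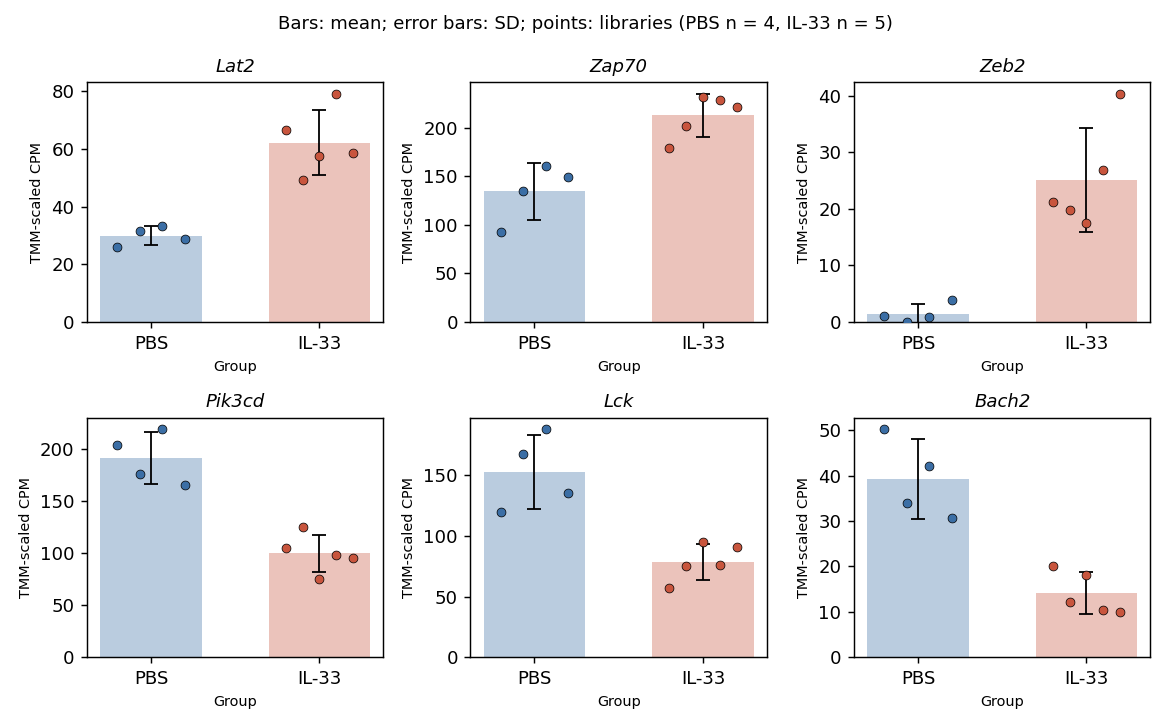
TMM-scaled CPM of 3 genes that rose (Lat2, Zap70, Zeb2) and 3 that fell (Pik3cd, Lck, Bach2) in the 4 PBS and 5 IL-33 libraries, with bars for means and error bars for SD. The points of the groups do not overlap in any of the 6 panels.

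Of 11 transcription factors linked to receptor expression or maturation of NK cells, T cells and ILC2s, 9 were tested: 2 were higher, 1 lower and 6 not called, with a median log2 change of -0.03. These 3 calls stand beside 25.2% of all tested genes called. Zeb2, a repressor known from terminal maturation of KLRG1+ NK and CD8 T cells, was near 0 with PBS, at 1.02, 0, 0.811 and 3.91 CPM. With IL-33 it held 21.2, 19.7, 17.5, 26.9 and 40.3 CPM, above every PBS library. With PBS replicate 2 at 0, Zeb2 passed the low-count filter only through the IL-33 libraries, where it was high. The fit without the filter also gave 4.20 (edgeR adjusted p = 0.0101). The log2 change was 4.20 ± 0.89 (edgeR adjusted p = 0.0082), and it was 5.32 without PBS replicate 4, the highest of its group, and 5.93 with limma voom. Zeb2 shares exon bases with the antisense gene Zeb2os.

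Bach2, a repressor known to restrain effector programmes in lymphocytes, fell, with 50.2, 33.9, 42.0 and 30.6 CPM with PBS and 20.2, 12.3, 18.1, 10.5 and 10.1 with IL-33. The groups did not overlap, and the log2 change was -1.46 ± 0.27 (edgeR adjusted p = 0.0038). Its antisense partner Bach2os shares exon bases with it. Tcf7, which encodes TCF-1, rose: its level was 58.3 ± 6.83 CPM with PBS and 94.4 ± 16.9 CPM with IL-33, a log2 change of 0.70 (adjusted p = 0.0097, edgeR). Nfil3, Ets1 and Id2, which serve the development of innate lymphocytes, had 0.63, -0.36 and 0.10 and were not called. The T-box factor genes Tbx21 and Eomes were not analysed here.

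The surroundings of the receptor genes on chromosome 6 were chosen for description after values were seen. Around Klrg1, 10 tested genes were taken evenly from both sides in order of position. Those at lower coordinates lay 905 to 1072 kb away and those at higher coordinates 25.8 to 413 kb away. Of these 10, 2 were called higher and 0 lower, with a median log2 change of 0.21. The region from Klrb1a to Klra2 (chr6:128609227-131247362), which holds the other receptors and begins 6.33 Mb from Klrg1, had 8 other tested genes. Of these 2 were called higher and 1 lower, with a median of 0.38. Both counts stand beside 25.2% of all tested genes called (13.7% higher) and a median of -0.05. The higher ones were Clec2d and BC035044, which was at 0 in all PBS libraries and in IL-33 replicate 1 and was at least 11.1-fold higher by group means against a floor of 3 counts per library. With no PBS counts, BC035044 passed the low-count filter through IL-33 libraries alone, so it could be tested only as higher. It was tested in 13 of 18 alternatives. Its call was lost in 4 of them: without PBS replicate 1 or 2, with the replicate block and with limma voom (adjusted p up to 0.185). The lower one was Cd69, an early activation marker, which fell by 1.59 in log2 units (adjusted p = 0.0012, edgeR).

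Across the 9 libraries, the profile of Klrg1 was most like those of Myl12a, Tmem254a, Ndfip1, Stab2 and Ptgs2 among 8780 protein-coding genes, by Pearson r of log2 CPM. The r was 0.985 for Myl12a, a myosin light chain gene, and 0.976 for Ptgs2, which encodes the prostaglandin synthase COX-2. Libraries of a group share the treatment, and 296 genes had r above 0.9 with Klrg1. With group means subtracted the values were 0.854 for Myl12a, 0.853 for Tmem254a, 0.938 for Ndfip1, 0.763 for Stab2 and 0.814 for Ptgs2. Klrb1b was most like Auh (0.961), Tpm3-rs7 (0.958) and Tpm3 (0.951), the last 2 being near copies of a tropomyosin gene, and 11 genes had r above 0.9 with it.

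The change of Klrg1 was stable over the analyses tried. Its log2 change lay between 0.92 and 1.10 and its adjusted p at or below 0.0331 in all 18 alternatives, which varied the scaling, filter, tool, block and libraries. Klrb1b was called in none of them, with log2 changes from -0.04 to 1.25 and adjusted p from 0.25 to 0.968.

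**Figure D5:**
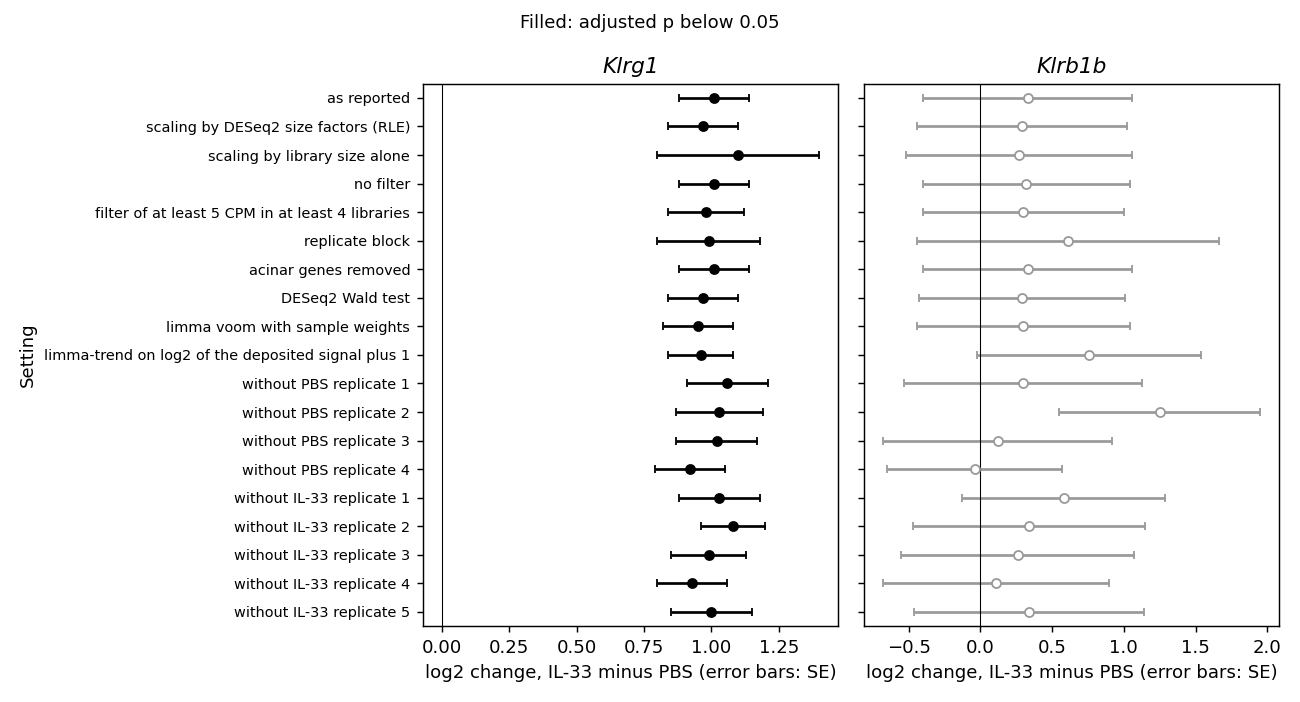
Log2 change, IL-33 minus PBS, with SE (x axis) of Klrg1 (left) and Klrb1b (right) as reported and under 18 alternative analyses (y axis). Klrg1 is filled (adjusted p below 0.05) throughout and stays between 0.92 and 1.10, while Klrb1b is open throughout and falls to -0.04 without PBS replicate 4.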

How the data were processed

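Libraries were made with a low-input kit from 5 to 15 ng of RNA and read as pairs of 150 nt, per the labels' protocols. Whole-number counts by Ensembl gene and a normalized signal were deposited by the authors, and the values show that the signal is the counts over a single scaling factor in each library. The build GRCm38.p6, STAR 2.7.7a, Salmon 1.6.0, Trimmomatic 0.39, Picard, DESeq2 and FastQC 0.11.9 are named, per the submitters' processing notes, with roles not given in the sources used here. Groups follow the sample labels (4 PBS, 5 IL-33), which differ from the design text (5 PBS and 4 IL-33 animals).

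Symbols (99.2% of genes matched), coordinates and exon lengths came from GENCODE M21. Counts were fitted with edgeR 4.0.16 in R 4.3.3 (TMM, filterByExpr at its minimum count of 10, two-sided quasi-likelihood F-test with robust dispersions, no covariates). P-values were adjusted by Benjamini-Hochberg over 14405 genes, threshold 0.05. The step was tested on simulated data. Levels are TMM-scaled CPM. The labels name no molecular identifiers, so reads may repeat a molecule, and the intervals and the floor of 3 counts take in counting error alone. All replicate pairs differed far beyond sampling noise. Levels of different genes were compared per kilobase of merged exons.

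Members and lists were chosen with earlier results of these data known. Named from each list were the 6 genes with the smallest adjusted p, the 3 most abundant NK or ILC1 markers, and the genes most like a receptor among those with a mean of at least 5 CPM; other named genes were chosen after their values were seen. Alternatives were RLE or library-size scaling, no filter or at least 5 CPM in at least 4 libraries, a replicate block, removal of acinar genes, DESeq2 1.42.0, limma 3.58.1 (voom with sample weights, and trend on log2 of signal plus 1), a threshold of 0.01, transcript length, group-centred likeness and leaving out each library. Protein sequences were planned and coding sequence was used in their place.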

Additional observations from a re-analysis of the deposited data

Results flagged for a closer look

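Groups of libraries looked at numbered 84 (42 genes in each of 2 treatments). Of them, 9 had 1 library far from the rest by Dixon's test at the 95% level. Chance flags about 1 in 20 groups of normally distributed values, a rate that need not hold for counts near 0. A gene at 0 in every library of a group but 1 is flagged at any count, so the 9 flags were not set against that rate. Of these, 6 came from 4 killer lectin receptor genes with low counts. Klrk1 was high in PBS replicate 2 at 6.45 CPM and in IL-33 replicate 1 at 1.49 CPM. Klrb1f was high in the same libraries, at 0.482 and 1.93 CPM. Klrc1 was above 0 only in PBS replicate 3, at 0.253 CPM, and Klrb1c was high in IL-33 replicate 3 at 1.02 CPM. The other 3 were in PBS replicate 4, the library with 40.1% acinar counts. Cdh2 was high there at 6.58 CPM, Nkg7 was low at 21.3 CPM, and Magohb, a gene near the receptor cluster chosen after its values were seen, was low at 13.8 CPM.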

How the results depend on the processing

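Of 14405 genes, 3633 were called, against 1976 with scaling by library size alone, where 67.4% of calls were higher in place of 54.1%. It was 1786 at a threshold of 0.01 and 2676 to 3695 leaving out 1 library. Higher genes fell from 1967 to 1019 at 0.01 and lower genes from 1666 to 644 by library size and 767 at 0.01, while the DESeq2 Wald test gave 2577 lower; the causes were not tested. Klrg1 kept its call under all 18 alternatives (0.92 to 1.08 leaving out 1 library). Without PBS replicate 4, the log2 change of Klrb1b was -0.04 (range -0.04 to 1.25), of Auh -0.01 (range -0.01 to 0.18) and of Tpm3 -0.04 (range -0.04 to 0.23); that of Hcst was 0.02 by library size. With group means subtracted, likeness to Klrb1b was 0.959 for Auh, 0.954 for Tpm3-rs7 and 0.947 for Tpm3, and to Klrg1 0.854 for Myl12a, 0.853 for Tmem254a, 0.938 for Ndfip1, 0.763 for Stab2 and 0.814 for Ptgs2.

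Replicate numbers were not found to pair the libraries: same-numbered deviations correlated at -0.06 to 0.07. With the replicate block, 1457 genes were called (791 higher, 666 lower) and Klrg1 had an adjusted p of 0.0331. Inpp5d, Pik3r1, Crk, Grb2, Clec2d, Gzma, Ndfip1, Magohb and BC035044 lost their calls. For Klrk1, Klrb1f, Klrb1c and Klrc1, a library at 0 allows up to 0.133 to 0.286 CPM. By longest transcript, Klrb1f (1.14 CPM per kilobase) exceeded Klrb1b (1.04) in IL-33 replicate 1.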
